A study of Mus musculus with 8 samples.

Results

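The replication-dependent histone genes supply the bulk of the core and linker histones that wrap new DNA. In GENCODE vM1, the gene annotation of mouse build mm9, 70 of 37310 genes had a symbol that begins with Hist1h, Hist2h, Hist3h or Hist4h, and all 70 were taken. They were 67 protein-coding genes and 3 pseudogenes, with 56 on chromosome 13, 10 on chromosome 3, 3 on chromosome 11 and 1 on chromosome 6. By histone type there were 6 genes of the linker histone H1, 20 of H2A, 19 of H2B, 12 of H3 and 13 of H4. The chromatin of these genes was read from 7 ATAC-seq libraries, in which the Tn5 transposase cuts accessible DNA and leaves sequencing adapters there. The libraries, titled ATAC1 to ATAC7, were made from stromal cells of the bone marrow of wild-type C57BL/6J mice at an age of 6 weeks, and an Input library of the same source was the control. The study sorted these cells into subpopulations, but the labels do not say which of them a title stands for, so the libraries are called by their titles. Each title had 1 library, and no difference between libraries below has a replicate check.

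Cells make most of their histone mRNA while DNA is copied in S phase, from clustered genes that mostly lack introns. These mRNAs end in a conserved stem-loop in place of a poly(A) tail, and the stem-loop binding protein Slbp recognises it. The coactivator Npat gathers at the clusters in nuclear bodies, while promoter factors differ between types, such as Hinfp at H4 genes, the octamer factor Pou2f1 at H2B genes and the CCAAT-binding factor NF-Y at several types. H2A and H2B genes often lie head to head and share the stretch between their starts.

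The annotated structure of the 70 genes had these features. In 63 genes (90%) every transcript had a single exon, against 12.8% of the 22380 protein-coding genes. The median gene length was 530.5 bases against 15420.5 bases, and 53 of the histone genes were shorter than 1000 bases. Because the genes are short and crowded, a window of 1000 bases on either side of a gene often reached a peak that lay at its neighbour, and the results below say where that matters. In 14 cases, 2 members on opposite strands had starts that faced away from each other across a gap of 167 to 692 bases (median 227.5), and 13 of these divergent pairs joined an H2A and an H2B gene.

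The stretches between the starts of divergent pairs are shown first, with 2 gaps that held some of the best-ranked histone peaks and 2 without a peak. Capitals mark exact matches, on either strand, to 5 promoter motifs. The first was the TATA box, spelled TATAAA, to which the general transcription machinery binds. The second was the CCAAT box, with the letters of its name. The octamer was searched as ATTTGCAT in full. The AC box, a known element of H1 promoters, was taken as AAACACA here. The GC box, a site of Sp1 and its relatives, was searched as GGGCGG throughout. A match on the other strand is printed as the reverse complement of these letters. The 4 gaps are written along the plus strand of mm9. They are chr13:21879088-21879329 and chr13:22134819-22135082, the gaps of the 2 pairs with the best-ranked peaks, chr13:21902069-21902235, the gap of a pair without a peak, and chr13:24026026-24026225, the first 200 bases of the gap of another pair without a peak.
Hist1h2an and Hist1h2bp: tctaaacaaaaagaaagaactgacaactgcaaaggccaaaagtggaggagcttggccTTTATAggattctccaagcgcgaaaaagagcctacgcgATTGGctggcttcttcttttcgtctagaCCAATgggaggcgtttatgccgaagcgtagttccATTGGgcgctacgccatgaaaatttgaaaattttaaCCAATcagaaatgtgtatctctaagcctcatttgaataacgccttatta
Hist1h2ag and Hist1h2bj: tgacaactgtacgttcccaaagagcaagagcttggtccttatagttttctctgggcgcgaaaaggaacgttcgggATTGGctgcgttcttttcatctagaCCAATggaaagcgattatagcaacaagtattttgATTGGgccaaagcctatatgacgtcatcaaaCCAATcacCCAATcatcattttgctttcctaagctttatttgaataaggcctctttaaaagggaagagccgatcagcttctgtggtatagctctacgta
Hist1h2bq and Hist1h2ao: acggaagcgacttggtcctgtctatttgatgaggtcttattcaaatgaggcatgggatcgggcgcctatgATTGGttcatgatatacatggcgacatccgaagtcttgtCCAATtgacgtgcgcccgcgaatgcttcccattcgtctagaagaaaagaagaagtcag
Hist1h2ba and Hist1h2aa: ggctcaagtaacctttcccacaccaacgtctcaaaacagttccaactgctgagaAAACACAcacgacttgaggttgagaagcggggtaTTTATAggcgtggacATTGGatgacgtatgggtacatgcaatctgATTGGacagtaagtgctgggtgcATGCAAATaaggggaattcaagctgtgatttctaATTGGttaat
The gap of Hist1h2an and Hist1h2bp held 4 CCAAT boxes and 1 TATA box, and that of Hist1h2ag and Hist1h2bj held 5 CCAAT boxes. The gap of Hist1h2bq and Hist1h2ao held 2 CCAAT boxes. The whole gap of Hist1h2ba and Hist1h2aa, 305 bases long, held 4 CCAAT boxes, 2 TATA boxes, 1 octamer and 1 AC box, so that gaps with and without peaks both held such matches.

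For H4 and H1, which are not in these pairs, the 200 bases before the start are shown for the best-ranked H4 gene and the 2 best-ranked H1 genes of chromosome 13, along the strand of each gene. They are chr13:23790324-23790523 on the minus strand (Hist1h4c), chr13:23855337-23855536 on the plus strand (Hist1h1a) and chr13:23714372-23714571 on the minus strand (Hist1h1e).
Hist1h4c: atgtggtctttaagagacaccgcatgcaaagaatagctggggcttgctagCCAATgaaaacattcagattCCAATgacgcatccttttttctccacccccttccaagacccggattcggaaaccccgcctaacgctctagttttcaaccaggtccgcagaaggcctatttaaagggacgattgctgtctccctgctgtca
Hist1h1a: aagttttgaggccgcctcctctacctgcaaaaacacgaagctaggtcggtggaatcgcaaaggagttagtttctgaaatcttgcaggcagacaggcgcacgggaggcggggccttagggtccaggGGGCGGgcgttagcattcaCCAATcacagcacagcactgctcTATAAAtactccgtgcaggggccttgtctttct
Hist1h1e: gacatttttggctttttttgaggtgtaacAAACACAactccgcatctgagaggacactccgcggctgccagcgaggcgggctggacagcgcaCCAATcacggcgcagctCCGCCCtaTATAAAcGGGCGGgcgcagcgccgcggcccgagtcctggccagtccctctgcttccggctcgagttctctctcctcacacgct
Hist1h4c had 2 CCAAT boxes in this stretch. Hist1h1a had a GC box, a CCAAT box and a TATA box in that order. In Hist1h1e an AC box lay farthest from the start, followed by a CCAAT box, a GC box, a TATA box and another GC box.

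Over all members, the window from 250 bases before to 50 bases after the start was searched for the same letters. The CCAAT box was found in 59 of 70 windows (84.3%), against 37.9% of all protein-coding genes. It was in every H1 and H2B window, in 19 of 20 H2A windows and in 11 of 12 H3 windows, but in 4 of 13 H4 windows (30.8%). The TATA box was found in 38 windows (54.3%, against 13.4%). The octamer was found in 16 windows (22.9%, against 1.72%), of which 9 belonged to H2B and 7 to H2A genes, and windows of divergent pairs overlap. The AC box was found in 5 of 6 H1 windows and in 10 windows in all (14.3%, against 6.43%). The GC box was as frequent as elsewhere, in 30 windows (42.9%, against 43.4%), with 10 of 13 H4 windows holding it and 2 of 12 H3 windows. The median GC content of the windows was 46.0% against 55.0%, and the median ratio of observed to expected CpG was 0.723 against 0.534. A match is a description of the letters and no evidence that a factor binds.

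The other shared sequence was at the 3′ end. The 16-base histone stem-loop, a stem of 6 base pairs around a loop of 4 bases, was searched in the 150 bases after the stop codon. Where no stop codon is annotated, the search began at the gene end. It was found for 62 of 70 members (88.6%) against 0.286% of protein-coding genes, and of the 64 protein-coding genes with it, 61 were members. The other 3 were H2afx, AI646023 and 1700014N06Rik. Here capitals mark the whole element, each variant is named by its number of members, and the coordinates of an example follow.
40 members: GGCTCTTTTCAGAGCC
9 members: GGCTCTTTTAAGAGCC
8 members: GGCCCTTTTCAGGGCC
The first is found, for example, at chr11:58762851-58762866 on the plus strand (Hist3h2ba), the second at chr13:21807587-21807602 on the minus strand (Hist1h2bl) and the third at chr13:21842019-21842034 on the minus strand (Hist1h4k). All 8 members with the third variant were H4 genes. No match was found for Hist1h2aj, Hist1h2an, Hist1h3g, Hist1h4a, Hist1h2al, Hist2h2be, Hist2h3c2 and Hist2h2bb, of which Hist1h2an and Hist1h4a had some of the best-ranked peaks below.

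The lists of peaks held 15188 peaks in ATAC7 to 32280 in ATAC2, each called by the authors against Input. Total reads per library are not given in the tables. The authors' fold over Input multiplies the ratio of library to Input reads by a factor that is constant within a library and went from 1.01 in ATAC3 to 1.71 in ATAC5, and how this factor was set is not given in the sources used here. The study's sort kept cells with Sca-1 (Ly6a) and Pdgfra on their surface and removed cells with CD45 (Ptprc) or CD31 (Pecam1), among others. Of 6 stromal markers, none had a start-site peak (within 1000 bases of its start) in every library: Twist1 had one in 6 libraries, Pdgfra in 5 and Cxcl12 in 2, and none was called for Prrx1, Lepr or Ly6a. Of markers of other cells, the haematopoietic gene Ptprc had a peak in 4 libraries and the endothelial gene Pecam1 in 2, with median rank percents of 88.8 and 90.0 among the libraries that had one. A rank percent is the authors' rank of a peak, 1 being the strongest, as a percentage of all peaks of its library, so a low value means a strong peak. The part of marker accessibility, or of any other cell type, in the histone results was not tested.

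Most histone genes had called peaks in every library. A peak in or within 1000 bases of the gene was called for 60, 58, 53, 58, 57, 59 and 52 of the 70 members in ATAC1 to ATAC7 in turn, which is 85.7, 82.9, 75.7, 82.9, 81.4, 84.3 and 74.3%. Among all protein-coding genes, members included, the corresponding percentages were 53, 55.8, 46.3, 46.3, 57.7, 56.4 and 45 in ATAC1 to ATAC7 in turn. Around start sites alone, which does not depend on gene length, 58, 58, 51, 56, 56, 58 and 49 members had a peak in ATAC1 to ATAC7 in turn. The background around start sites was 49.1%, 50.4%, 43.6%, 43.7%, 52.9%, 51.6% and 42.1% in ATAC1 to ATAC7 in turn. The members' share was above the background in each of the 7 libraries by both counts. Peaks were called for 47 members in all 7 libraries (67.1%, against 39.4% of protein-coding genes), or for 43 members around start sites (61.4%, against 37%).

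**Figure D1:**
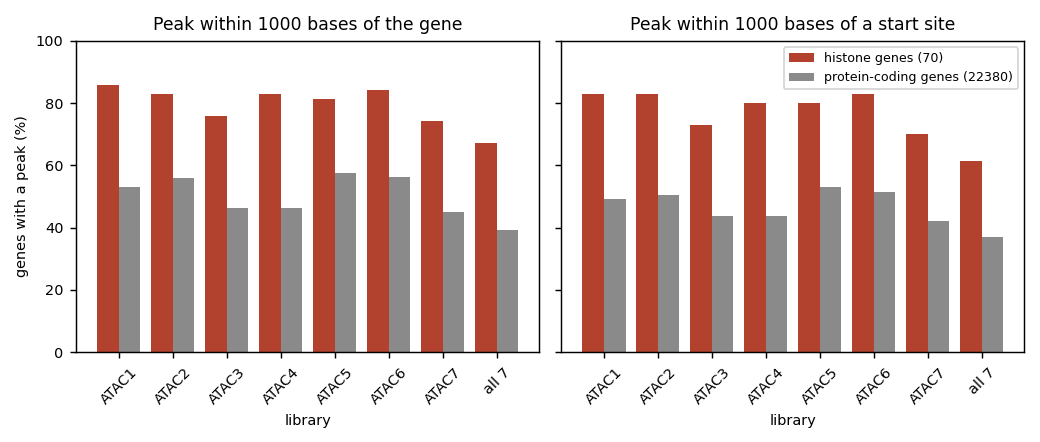
Percentage of genes with a peak within 1000 bases of the gene (left) or of an annotated start site (right), by library and for all 7 libraries, for the 70 histone genes (red) and 22380 protein-coding genes (grey). The red bars stand above the grey ones throughout, from 74.3% against 45% in ATAC7 to 85.7% against 53% in ATAC1 on the left.

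The excess depended on how peaks were given to these crowded genes. The best peaks of the members were 35 different peaks in ATAC3 to 44 in ATAC1, since 31 to 38 members per library had their best peak in common with a neighbour. Of the 61 members with a peak in any library, 28 had a best peak nearest to their own start in every library where they had one, 23 in some of them and 10 in none. When each peak was given only to the gene with the nearest start site, 22 members (31.4%) had a peak in all 7 libraries, against 31.0% of protein-coding genes, a share near the background. That rule gives the peak of a divergent pair to 1 of its genes. In at least 1 library, the same rule left 82.9% of members with a peak, against 59.1%. With no flanking window, 8 members (11.4%) had a peak in all 7 libraries, against 22.1% of the much longer protein-coding genes.

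Of the 70 members, 47 had a peak in all 7 libraries (67.1%), 14 in 2 to 6 libraries (20.0%) and 9 in none (12.9%). Of protein-coding genes, 39.4% had a peak in all 7 libraries, 23.1% in 1 to 6 and 37.4% in none. These shares hold for the window of 1000 bases and change with the rule as given above. By type, 4 of 6 H1 genes, 14 of 20 H2A genes, 15 of 19 H2B genes, 8 of 12 H3 genes and 6 of 13 H4 genes were called in all 7. The genes called in 2 to 6 libraries were 2 of H1, 2 of H2A, 1 of H2B, 4 of H3 and 5 of H4.

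The peaks of histone genes were of middling to high rank. The median rank percent of the best peak was 18.6, 17.3, 38.2, 33.6, 20.9, 18.6 and 38.7 in ATAC1 to ATAC7 in turn. For protein-coding genes with a peak it was 22.3, 20.1, 30.4, 30.5, 19.2, 19.9 and 31.6 in ATAC1 to ATAC7 in turn. By this count the histone medians were better than the background in ATAC1, ATAC2 and ATAC6 and worse in the other 4 libraries. The order turned with the window: around start sites alone the median was 19.7 against 18.8 in ATAC2 and 19.3 against 18.7 in ATAC6, and only ATAC1 stayed better, with 18.6 against 21.3. The 3 libraries with the worst medians were those with the fewest peaks. When each list was limited to its best 15188 peaks, the medians were 29.6, 34.3, 40.3, 33.8, 42.2, 35.3 and 38.7 in ATAC1 to ATAC7 in turn, and ATAC5 then had the worst median. Among the 47 members called in all 7 libraries, the median rank percent was 18.2, 16.1, 38.2, 29.4, 20.0, 16.2 and 38.7 in ATAC1 to ATAC7 in turn. For the 8823 protein-coding genes called in all 7 it was 16.7, 13.8, 26.6, 26.7, 12.8, 13.9 and 28.4 in ATAC1 to ATAC7 in turn, which is better than the members in every library.

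**Figure D2:**
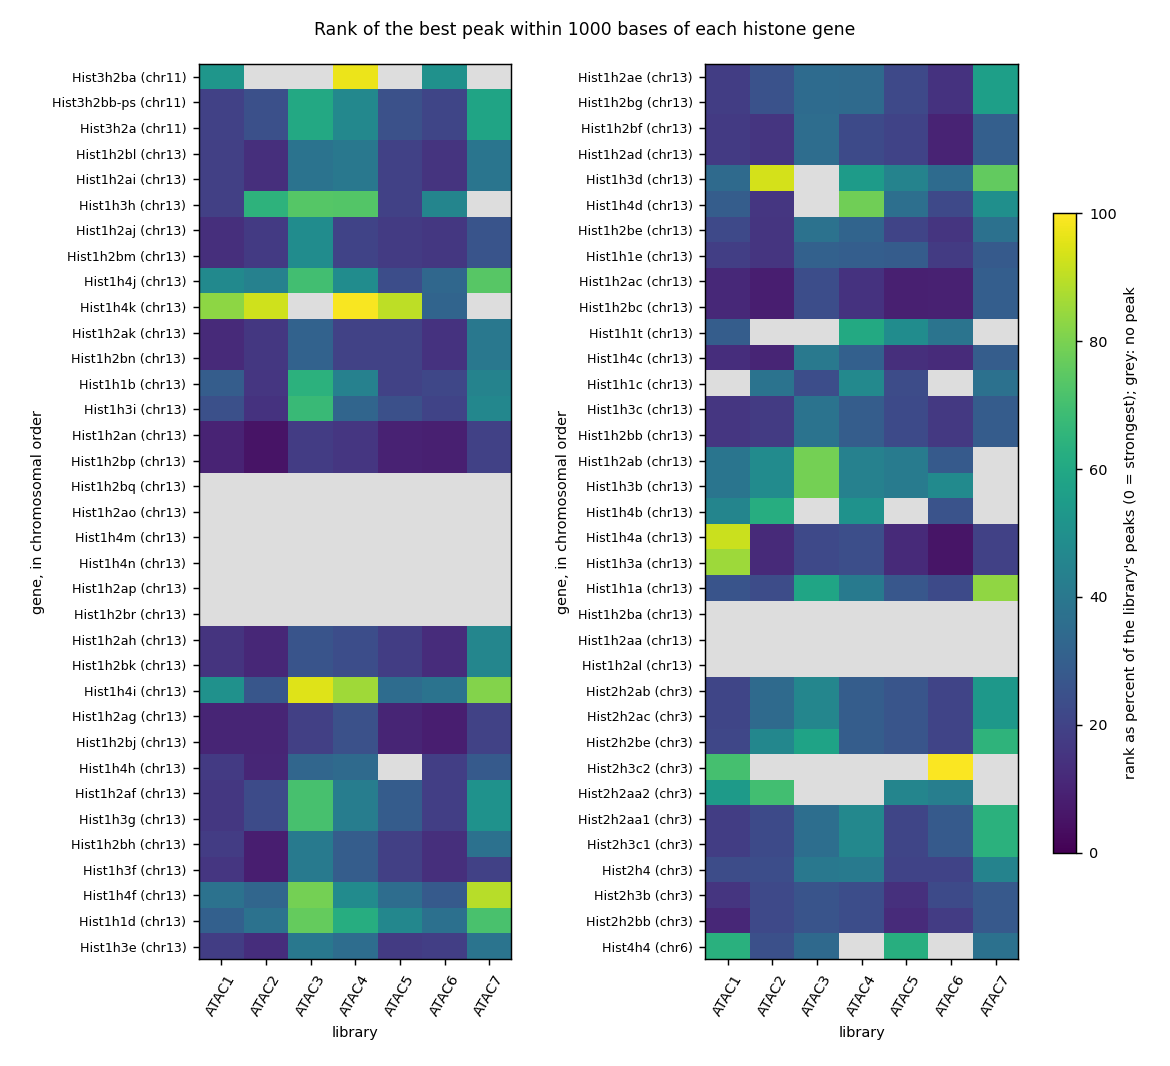
Rank of the best peak within 1000 bases of each of the 70 histone genes (rows, in chromosomal order) in each library (columns), as a percentage of the peaks of that library, with dark colours for strong peaks and grey where no peak was called. Neighbouring rows with like colours often share a peak, and 9 genes are grey in all 7 libraries.

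H2B genes had the lowest median rank percent of the 5 types in each of the 7 libraries, from 14.97 in ATAC6 to 37.2 in ATAC7. H2A genes, which share the peaks of most divergent pairs, had medians of 36.1 against 35.8 in ATAC3 and 42.8 against 37.2 in ATAC7. Some H2B peaks lay far from the start. The best peak of Hist1h2be was 35090.5 to 35129 bases downstream of it in ATAC1, ATAC3, ATAC5 and ATAC6. On chromosome 13, the gap of Hist1h2an and Hist1h2bp led, with a median rank percent of 10.1 over the libraries. Reads were counted by the authors in the outer region, the wider stretch from which the caller cut the peak. The best peak of this gap held 717, 524, 441, 378, 673, 883 and 339 library reads in ATAC1 to ATAC7 in turn, over 24 to 33 Input reads. The rank percent was 10.1, 5.15, 17.8, 15.8, 9.54, 8.84 and 19.3 in ATAC1 to ATAC7 in turn, so this peak stayed in the best 19.3% of each list. Its gap is the first of the sequences printed above.

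The gap of Hist1h2ag and Hist1h2bj followed, with a median rank percent of 10.5. Its best peak held 762, 440, 380, 474, 697, 931 and 362 reads in ATAC1 to ATAC7 in turn, over 38 to 52 Input reads. Its rank percent lay between 8.55 in ATAC6 and 24.9 in ATAC4. Both gaps thus held many reads in ATAC1, ATAC5 and ATAC6 and fewest in ATAC7. The authors' scaled fold over Input was 32.6, 28.5, 16.5, 15.8, 38.4, 42.1 and 15.6 at the first gap and 19.5, 16.2, 10.1, 14.1, 23.9, 28.2 and 10.5 at the second, in ATAC1 to ATAC7 in turn. On this scale both gaps were again highest in ATAC6.

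Of the 14 divergent pairs, 11 had a peak in all 7 libraries and 3 in none. For each pair and library, the best-ranked peak in or within 250 bases of the gap was taken, 77 peaks in these 11 pairs. Of them, 74 had their centre within 250 bases of the centre of the gap. The median absolute offset was 68 bases. Since the peaks were chosen by that window and most gaps are short, this count was nearly fixed in advance. The medians that follow use the best peak within 1000 bases of each gene. In ATAC4 the median rank percent was 24.9 for the 22 members in pairs that had a peak and 42.3 for the 36 other members with a peak. The same order held in the other libraries, with 16.4 and 25.2 in ATAC1, 13.5 and 22.6 in ATAC2, 35.1 and 40.6 in ATAC3, 19.5 and 23.5 in ATAC5, 13.5 and 21.9 in ATAC6, and 38.7 and 41.6 in ATAC7. The members of a pair share their peak, so these medians rest on fewer peaks than genes.

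Among H3 genes of chromosome 13, Hist1h3e and Hist1h3f had the best median rank percents, 18.6 and 18.9. The best peak at Hist1h3e held 535, 309, 279, 235, 480, 460 and 192 reads in ATAC1 to ATAC7 in turn, over 20 to 28 Input reads. At Hist1h3f, which faces Hist1h2bh across the longest gap (692 bases), it held 459, 407, 174, 264, 465, 515 and 256 reads in ATAC1 to ATAC7 in turn. This was not 1 peak throughout, since in ATAC3, ATAC4 and ATAC5 it was nearest to the start of Hist1h2bh and in the others it lay 327.5 to 402.5 bases downstream of the start of Hist1h3f. At Hist1h3e the peak was nearest to its own start in all 7 libraries, with fewer reads in ATAC3, ATAC4 and ATAC7 than in the other 4.

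The H4 genes ranged from strong to weak peaks. Hist1h4c led with a median rank percent of 13.3 and reads of 604, 396, 207, 243, 539, 667 and 205 in ATAC1 to ATAC7 in turn. Hist1h4a was next, with a median rank percent of 19.2, but its values crossed nearly the whole range. Its best peak held 2190 reads over 104 Input reads in ATAC6, which was the highest read count at any histone gene in any library. It held 580 reads in ATAC2, 572 in ATAC3, 583 in ATAC4, 857 in ATAC5 and 498 in ATAC7, and 104 reads over 12 Input reads in ATAC1. The rank percent was 5.51 in ATAC6 and 91.8 in ATAC1, and in ATAC1 the peak was centred 454.5 bases downstream of the start and in the other libraries at -215 to -79 bases from it. No peak was called within 1000 bases upstream of Hist1h4a in ATAC1, and the other 6 libraries had one there. The neighbouring gene Hist1h3a shared that peak as its best in those 6 libraries.

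Hist1h1a and Hist1h1e had the best median rank percents of the H1 genes, 27.3 and 28.1. The best peak at Hist1h1a held 291, 151, 103, 162, 208, 345 and 105 reads in ATAC1 to ATAC7 in turn, and its rank percent reached 83.6 in ATAC7. At Hist1h1e it held 1017, 359, 170, 260, 860, 494 and 201 reads in ATAC1 to ATAC7 in turn, with rank percents from 15.3 to 31.2. Neighbours set 1 extreme of each gene, because the peak in ATAC7 at Hist1h1a was nearest to the start of Hist1h3a and the peak in ATAC2 at Hist1h1e was nearest to that of Hist1h2be. In the other 6 libraries, the rank percent was 22.6 to 58.8 at Hist1h1a and 17.6 to 31.2 at Hist1h1e. The testis gene Hist1h1t had a peak within 1000 bases in 4 libraries, but all 4 were nearest to the start of Hist1h4c, 675.5 to 882.5 bases downstream of it. Hist1h1c had a peak in 5 libraries, nearest to its own start in each.

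Hist1h1c lacked a peak in ATAC1 and ATAC6, which had more peaks in all than ATAC3, ATAC4 and ATAC7, where it had one. It was chosen for description after its values were seen. Its best peak held 366 reads in ATAC2, 477 in ATAC3, 368 in ATAC4, 863 in ATAC5 and 179 in ATAC7, with rank percents from 23.4 to 47.0. In ATAC1 and ATAC6 none was called, and the nearest peak lay 6180 and 5121 bases away. The table lists only called peaks, so reads at Hist1h1c in ATAC1 and ATAC6 are not known. Hist1h4h, also chosen after its values were seen, had a peak in every library but ATAC5, with 292 to 872 reads.

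Of the 10 Hist2 genes of chromosome 3, 8 were called in all 7 libraries, beside 37 of 56 genes on chromosome 13. The divergent pair Hist2h2ac and Hist2h2be and the adjacent Hist2h2ab had peaks in all 7 libraries, with a median rank percent of 29.4 for each of the 3 genes. The best peak at Hist2h2ab held 325, 123, 146, 300, 330, 447 and 105 reads in ATAC1 to ATAC7 in turn, and Hist2h2ac had the same peak. It lay at the start of Hist2h2ab in ATAC1, ATAC2, ATAC3 and ATAC7 and was nearest to that of Hist2h2ac in ATAC4, ATAC5 and ATAC6. Hist2h2be had a different best peak in ATAC1, ATAC2, ATAC3 and ATAC7, with 530, 205, 147 and 116 reads, which was nearest to the start of Hist2h2ac.

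Hist2h2aa1 and the overlapping gene Hist2h3c1 shared a best peak in all 7 libraries, with 91 reads in ATAC7 to 294 in ATAC1 and a median rank percent of 28.4. Their copies on the other strand had peaks in fewer libraries. Hist2h2aa2 had a peak in 4 libraries, with 51 to 113 reads, and the pseudogene Hist2h3c2 in 2, with 90 reads in ATAC1 and 66 in ATAC6. Only 35.6% of the 50-base windows around Hist2h2aa1, 35.7% of those around Hist2h2aa2 and 48.9% of those around Hist2h3c2 occur once in the genome, so reads may be placed at either copy, and the difference between the copies is uncertain.

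The other 3 genes of chromosome 3 were called in all 7 libraries. The peak of the H4 gene Hist2h4 held 566, 271, 245, 340, 387, 655 and 200 reads in ATAC1 to ATAC7 in turn. A peak at the start of Hist2h2bb, centred 61.5 to 247 bases upstream of it, held 590, 227, 235, 346, 397, 590 and 181 reads in ATAC1 to ATAC7 in turn, with rank percents from 13.9 to 27.9. This peak was also the best within 1000 bases of the neighbouring Hist2h3b in all 7 libraries, 820 to 1005.5 bases downstream of the start of Hist2h3b. A weaker peak nearest to the start of Hist2h3b itself was called in 5 libraries, with 279 reads in ATAC1 as its highest count, and in ATAC3 and ATAC7 the call of Hist2h3b rests on the peak of its neighbour. Hist2h2bb itself had a better-ranked peak 8608 to 8616.5 bases downstream of its start in ATAC1, ATAC5 and ATAC6, and its median rank percent was 22.1.

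On chromosome 11, Hist3h2a and the pseudogene Hist3h2bb-ps form a divergent pair, and their best peak, the same for both genes, held 587, 297, 371, 468, 214, 765 and 151 reads in ATAC1 to ATAC7 in turn. It did not keep 1 place: its centre was nearest to the start of Hist3h2a in ATAC1, ATAC2 and ATAC7 and to that of Hist3h2bb-ps in the other 4 libraries, and in ATAC5 a second peak, with 229 reads, lay on the side of Hist3h2a. The rank percent of the best peak lay between 19.3 in ATAC1 and 60.4 in ATAC3. The third gene, Hist3h2ba, had a peak only in ATAC1, ATAC4 and ATAC6, with 101, 60 and 97 reads. Hist4h4, the H4 gene on chromosome 6, had 110 reads in ATAC1, 181 in ATAC2, 227 in ATAC3, 82 in ATAC5 and 160 in ATAC7, and no peak in ATAC4 and ATAC6. These were different peaks, centred 406 to 496.5 bases downstream of the start in ATAC2, ATAC3 and ATAC7 and at -738.5 and -769.5 bases from it in ATAC1 and ATAC5. Neither Hist3h2ba nor Hist4h4 belongs to a divergent pair.

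Over the 7 libraries, 432 peaks lay in or within 1000 bases of a member, and the median position of their centres was -6 bases from the nearest member start, where negative values are upstream. Of these, 265 (61.3%) had their centre within 250 bases of it. Because the genes are short, most peaks chosen for lying near a gene also lie near its start, and no background was computed for this share. The median position was -29.75 bases for H2A, -53 bases for H2B and -38.5 bases for H3, and 49.5 bases for H4 and 167 bases for H1. Within single libraries the sign turned for some types: the H4 median was -6 bases in ATAC5 and -58 bases in ATAC7, that of H2A was 35 bases in ATAC1 and 34.5 bases in ATAC5, and that of H2B was 14.5 bases in ATAC4. The median of H1 was downstream and that of H3 upstream in each of the 7 libraries. No test was made of these positions. For H1, 8 of 50 peaks were centred upstream of the start. Distances refer to the nearest member start, so peaks between clustered genes may belong to another gene.

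**Figure D3:**
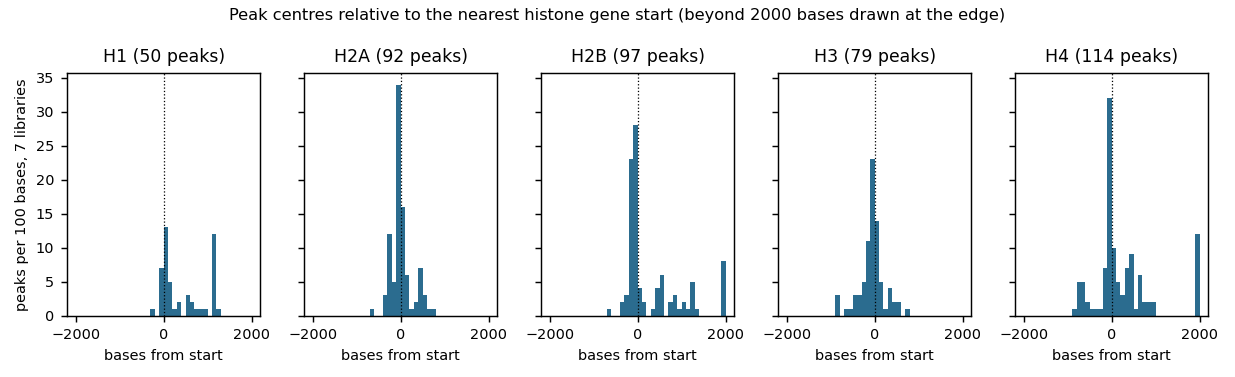
Number of peak centres per 100 bases of distance from the nearest histone gene start, summed over 7 libraries, by histone type (negative values are upstream). H2A, H2B, H3 and H4 peak close to the start, and H1 peaks lie mostly at or downstream of it, with a median of 167 bases downstream.

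Per 1000 bases, histone peaks had fewer reads than those of other genes but a higher fold over Input. Among the best peaks around start sites, each counted once, the median was 325 to 472 library reads per 1000 bases of outer region in the 7 libraries, against 418 to 529 for protein-coding genes. The median of Input reads was 34.2 to 46.3 per 1000 bases against 74.8 to 88.5. The authors' fold over Input, a scaled ratio of these, had a median of 8.72 in ATAC7 to 22.0 in ATAC6 for histone peaks and of 5.81 in ATAC3 to 12.1 in ATAC5 for protein-coding genes. The histone medians per 1000 bases were lower for both kinds of reads in each of the 7 libraries. Without division by length, the median of library reads was higher for histone peaks in ATAC4 (260 against 247) and ATAC6 (447 against 432) and lower in the other 5 libraries. Repeated sequence was not counted for all protein-coding genes, the group compared here. Around member starts, a median of 69.7% of the 50-base windows occur once. For the lists of histone regulators, chaperones, other histone genes and S phase genes, the median was 98.5 to 100%. The part of repeated sequence in the read counts was not tested.

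**Figure D4:**
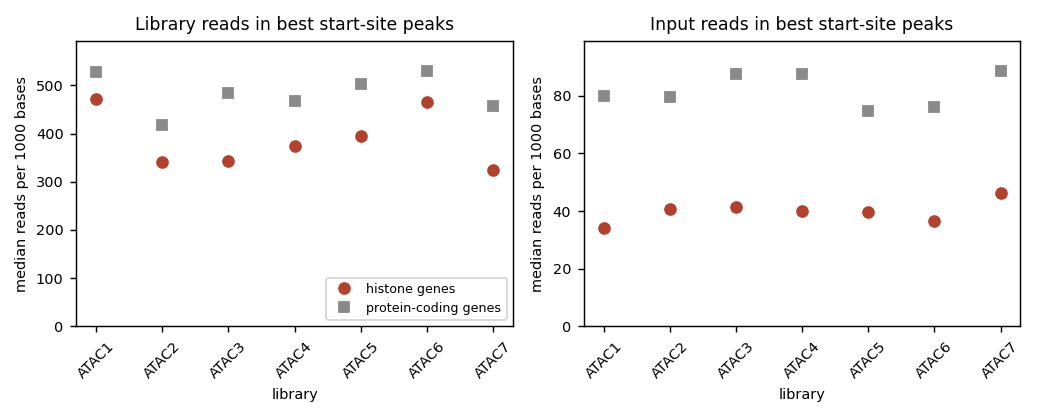
Median library reads (left) and Input reads (right) per 1000 bases in the best start-site peaks of histone genes (red circles) and protein-coding genes (grey squares), by library. The red circles lie below the grey squares in all 7 libraries, and the gap is wider for Input, where they lie between 34.2 and 46.3 against 74.8 to 88.5.

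The 9 genes without a peak fell into 2 kinds. Hist1h2bq, Hist1h2ao, Hist1h4m, Hist1h4n, Hist1h2ap and Hist1h2br lie within chr13:21898281-21929399 in a block that is repeated in mirror image. The gap of Hist1h2bq and Hist1h2ao and that of Hist1h2ap and Hist1h2br, both of 167 bases, had 0 mismatches, and so had Hist1h2bq against Hist1h2br over 3788 bases and Hist1h2ao against Hist1h2ap over 519 bases. Of the 50-base windows in and around these 6 genes, 0 to 11.5% occur once in the genome. How reads that align to several places were treated is not given in the sources used here, and a peak that is not called in such sequence says nothing of its chromatin. The other 3 genes were Hist1h2ba and Hist1h2aa, known as histone genes of the testis, with 94.1% and 93.9% of windows occurring once, and Hist1h2al, which lies far from the cluster, with 71.9%. Over all members, the median share of windows that occur once was 84.2% for the 47 genes called in all libraries, 89.9% for the 14 called in some and 5.82% for the 9 called in none.

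**Figure D5:**
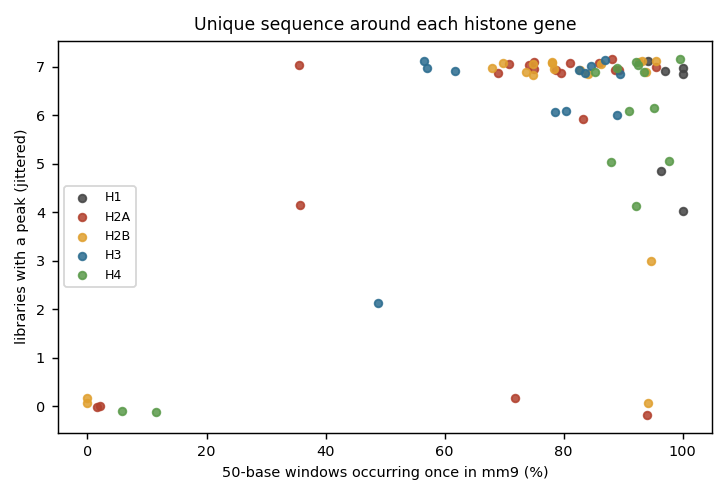
Percentage of 50-base windows in and within 1000 bases of each histone gene that occur once in mm9 (horizontal) against the number of libraries with a peak (vertical, with a small random shift), coloured by histone type. Of the 9 genes without a peak, 6 lie at 11.5% or below and 3 at 71.9% or above.

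Merged over libraries, the histone peaks formed 99 of 50683 regions. Of these 99 regions, 29 (29.3%) were called in all 7 libraries, against 16.6% of all regions, and 26 (26.3%) in 1 library, against 40.9%. The sets are unlike, since the histone regions were chosen for lying near genes and the others were not. No background of regions near genes was computed. Reads in the member regions called in all libraries made up 0.320% of the reads in all commonly open regions in ATAC1 (95% Wilson interval 0.315 to 0.325%), 0.289% in ATAC4 (0.282 to 0.295%), 0.265% in ATAC6 (0.260 to 0.269%) and 0.243% in ATAC2 (0.238 to 0.249%). The share was 0.214% in ATAC5 (0.210 to 0.217%), 0.211% in ATAC3 (0.206 to 0.216%) and 0.210% in ATAC7 (0.205 to 0.216%). The intervals cover counting error only. The last 3 libraries did not differ beyond them, whereas ATAC1 lay above all others. The outer regions behind these sums covered 0.412% of the bases in ATAC1 and 0.312 to 0.370% in the other libraries, and the Input share was 0.195% in ATAC1 and 0.145 to 0.170% in the others, so ATAC1 was also highest in the length called and in Input. The part of these in the order of the libraries was not tested.

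Of 33 vomeronasal receptor genes, sensory receptors that lie between the histone genes, none had a start-site peak in any of the 7 libraries, with a median of 92.8% of windows occurring once. Of 15 other neighbours, 6, 7, 3, 5, 9, 7 and 5 had one in ATAC1 to ATAC7 in turn, and 6 had none in any library. These shares were below the start-site background given above in 6 libraries and above it in ATAC5. One of these neighbours, Gm17658, which was chosen for mention after its values were seen, had the best peak of Hist1h4d as its own in each of the 6 libraries where it had one. The receptor genes lie together within chr13:22179747-23342192, in the stretch between Hist1h2bj and Hist1h4h, which holds no member. Histone peaks thus lay on either side of this stretch and not among the receptor genes.

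The genes that serve histone supply were open in nearly every library. Of 24 genes found for histone transcription and mRNA processing, 23 or 24 had a start-site peak in each library and 21 had one in all 7, against 37% of protein-coding genes, with a median rank percent from 5.78 in ATAC6 to 14.8 in ATAC3. The best of them was Nfya, a subunit of NF-Y, with a median rank percent of 1.06 and reads of 2463, 178, 1538, 1210, 2637, 3441 and 1229 in ATAC1 to ATAC7 in turn. Its rank percent was 59.7 in ATAC2 and at most 2.34 in the other libraries. The worst was Ncbp2, a subunit of the cap-binding complex, with a median of 35.1 and reads of 293, 129, 235, 182, 248, 445 and 145 in ATAC1 to ATAC7 in turn. All 12 histone chaperones and 17 of 20 S phase genes had a start-site peak in all 7 libraries, beside the same background of 37%. Of 10 histone genes found outside the replication-dependent set, such as those of replacement variants, 7 had one in all 7 libraries, with median rank percents from 7.79 in ATAC1 to 15.7 in ATAC3. The lists were chosen with earlier results known, and their medians are descriptions.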

How the data were processed

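The deposited peak tables of the 7 ATAC-seq libraries were used. The authors used Bowtie and the mouse build mm9 for alignment, and CisGenome for calling peaks per library over Input, with a p-value limit of 1e-05 and an FDR under 0.01. The submitters' processing notes also name DiffBind and bedtools. Whether reads were shifted for Tn5 or duplicates removed is not given in the sources used here. The deposited tables, without a header, hold, for each outer region, counts of library reads and of Input reads, and the authors' fold over Input as a ratio with 0.01 added to the Input reads. Separate lists of the same coordinates were not used. No total depth is given. The fold carries a constant factor per library, whose making is not given.

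Members were the genes named by the symbol rule, and a peak counted with at least 1 base within 1000 bases of a gene. Members and gene lists were chosen with earlier results of these data known. All members on chromosomes 3, 11 and 6 were named, and on chromosome 13 the 2 of each type with most libraries and the lowest median rank percent, the 2 best divergent pairs, and any member called in 1 or 2 libraries, of which there were 0. Other members are named where a count or a feature turned on them. For lists, the best and the worst gene of histone transcription and mRNA processing were named. Divergent pairs had starts at most 1000 bases apart. Uniqueness was counted over both strands of the genome NCBIM37, the same build as mm9. Overlaps were first tested on simulated peaks planted near known genes. No test was made between libraries, with 1 library each. Alternatives were other windows, start sites only, a fold of at least 5, equal peak numbers, outer regions, nearest start site only and protein-coding members only. Python 3.11.15, numpy 2.4.6, pandas 2.3.3, statsmodels and pysam were used. A further marker of other cells is not reported here.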

Additional observations from a re-analysis of the deposited data

How the results depend on the processing

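No paired analysis was possible because the labels give 1 library for every title, and none was left out in turn for the same reason. Of 136 values under alternatives, 100 stayed within 1.5 times the count or within the 95% interval of the reported value. The interval of a median was taken over the members of a library, many of which share a best peak. None of the intervals measures variation between replicates. With no flanking window, members with a peak fell to 39 in ATAC1, 37 in ATAC2, 31 in ATAC3, 36 in ATAC5, 17 in ATAC7 and 8 in all 7 libraries, and the median rank percent was 23.3 in ATAC1, 26.9 in ATAC2, 42.6 in ATAC4, 25.6 in ATAC5 and 21.4 in ATAC6. With each peak given to the nearest start site only, 22 members had a peak in all 7 libraries, and the median was 27.8 in ATAC1, 24.1 in ATAC2, 43.8 in ATAC4, 24.8 in ATAC5 and 21.5 in ATAC6. With a fold of at least 5, the median was 23.2 in ATAC1, 49.5 in ATAC3, 45.3 in ATAC4 and 48.4 in ATAC7, and the share of commonly open reads was 0.432%, 0.323%, 0.287%, 0.398%, 0.287%, 0.360% and 0.280% in ATAC1 to ATAC7 in turn, with fewer regions in the sum. With equal peak numbers, the median was 29.6 in ATAC1, 34.3 in ATAC2, 42.2 in ATAC5 and 35.3 in ATAC6, where the denominator is smaller by construction, the share was 0.218% in ATAC3, 0.297% in ATAC4 and 0.218% in ATAC5, and 71.1% of peak centres lay within 250 bases of a start. The median values with outer regions, a wider window, start sites only or protein-coding members only stayed within the interval. Apart from the effects of construction, the cause was not tested. Unknown total depth and repeated sequence limit what a missing peak can say.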
